A study of Mus musculus with 8 samples.

Results

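The 10 genes described here are 3 Nr4a nuclear receptors (Nr4a1, Nr4a2 and Nr4a3) and 7 immediate early genes (Fos, Fosb, Jun, Junb, Egr1, Atf3 and Ier2), out of 31053 gene identifiers counted in each library. They were listed by name, and the list was chosen by the measured fall of Nr4a3 in the same knockout and control libraries, with the question whether Nr4a3 moves alone. The genotype differences of these 10 genes are therefore given as a description: no p-value is given for them, and their count past the threshold of the fit over all genes restates the choice. Libraries of 3′ transcript ends were made with the QuantSeq kit from eyecups of mice at postnatal day 11. There were 4 Bbs8+/+ libraries from wild-type littermates (strain C57/Bl6, untreated) and 4 Bbs8-/- libraries from constitutive knockouts of the same strain and age, also untreated. The study's methods count each animal as a biological replicate. The deletion was present in every cell of the animal, and the eyecup, from which cornea, lens, retina and optic nerve had been discarded, holds choroid and sclera beside the retinal pigment epithelium (RPE).

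Immediate early genes are switched on within minutes of a stimulus, from transcription factors already present in the cell and without new protein. Calcium, cyclic AMP and growth factor signals reach them through CREB at cAMP response elements and through SRF with its ELK and MRTF partners at CArG boxes. Fos, Fosb, Jun, Junb and Atf3 encode subunits of the dimeric AP-1 and ATF factors, Egr1 encodes a zinc finger factor, Ier2 a short-lived nuclear protein, and Nr4a1 to Nr4a3 encode orphan nuclear receptors that are controlled mainly by how much of them is made. Dissection and handling of a tissue are also known to induce them.

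The promoters of the 3 receptors are shown because all 3 genes share a feature that the choice of the list did not use, and that of Fos is shown beside them as an early gene whose CREB site is well known. RefSeq promoter windows, from 250 bases before to 50 bases after the start (build GRCm38.p6, the same assembly as the mm10 build of the study), were matched for 8 of the 10 genes. Each stretch below runs 5′ to 3′ on the strand of the gene and stops before the first exon base annotated in GENCODE M21. Capitals mark TGACG, the core of the cAMP response element, or CGTCA, the same core on the other strand. The Nr4a1 stretch is chr15:101266596-101266845 on the plus strand and lies inside the annotated gene, between exons of its longer transcripts. The Nr4a2 stretch is chr2:57124004-57124253 on the minus strand, the Nr4a3 stretch is chr4:48045055-48045152 on the plus strand and the Fos stretch is chr12:85473640-85473889 on the plus strand, and these lie outside their genes.
Nr4a1: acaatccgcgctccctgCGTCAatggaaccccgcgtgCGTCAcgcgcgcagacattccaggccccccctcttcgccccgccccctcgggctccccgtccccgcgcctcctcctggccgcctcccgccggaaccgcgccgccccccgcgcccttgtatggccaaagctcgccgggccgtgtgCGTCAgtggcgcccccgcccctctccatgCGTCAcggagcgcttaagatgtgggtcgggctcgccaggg
Nr4a2: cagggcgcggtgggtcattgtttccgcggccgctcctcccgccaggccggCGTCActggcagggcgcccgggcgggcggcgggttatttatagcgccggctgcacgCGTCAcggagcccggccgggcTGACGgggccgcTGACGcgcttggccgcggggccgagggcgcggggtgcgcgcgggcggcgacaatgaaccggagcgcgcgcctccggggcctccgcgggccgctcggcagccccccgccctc
Nr4a3: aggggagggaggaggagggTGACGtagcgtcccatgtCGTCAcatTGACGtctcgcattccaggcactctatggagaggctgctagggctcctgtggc
Fos: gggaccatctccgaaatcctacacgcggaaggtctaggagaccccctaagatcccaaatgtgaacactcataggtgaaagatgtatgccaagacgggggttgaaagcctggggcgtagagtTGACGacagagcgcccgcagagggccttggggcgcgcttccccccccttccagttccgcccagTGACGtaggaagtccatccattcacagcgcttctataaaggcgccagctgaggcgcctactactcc

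The TGACG core, searched on both strands with overlapping matches counted as 1, was present 4 times in the windows of Nr4a1, Nr4a2 and Nr4a3. The fourth match of Nr4a3 falls from 147 to 143 bases before the RefSeq start, inside a longer first exon in GENCODE. Among all 32851 windows of the same length, 20.8% held at least 1 core and 0.113% held at least 4. The windows of the AP-1 genes held fewer, with 2 in Fos, 1 each in Fosb, Junb and Atf3, and 0 in Jun. The full palindrome TGACGTCA, found in 1.79% of all windows, was in none of the 8, and neither were the AP-1 site TGACTCA (5.2% of windows), the Nr4a site AAAGGTCA (1.51%) or the CArG box (1.63%). The EGR site GCGNGGGCG, present in 5.55% of windows, occurred in Nr4a1, Nr4a2 and Fosb. These matches are letters in a fixed window and say nothing of binding in this tissue.

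**Figure D1:**
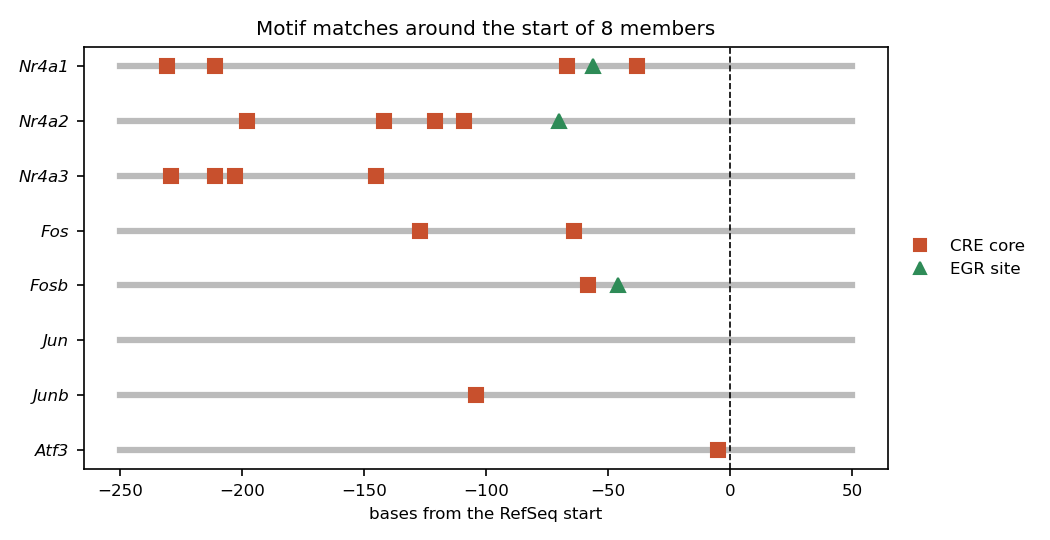
Each grey bar is the 300-base RefSeq window of a gene, from 250 bases before to 50 bases after the start (x axis, bases from the start; dashed line, start). Squares are CRE cores and triangles EGR sites on either strand; the 3 Nr4a windows carry 4 squares each, and the Jun window carries none.

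The 8 libraries held from 1636725 to 2884983 counts on genes. CPM values (counts per 1e+06 counts on genes) were scaled by edgeR's TMM factors throughout, and 3 counts then corresponded to 1.05 to 1.82 CPM. Ttc8, which encodes the BBS8 protein, served as a check of the labels. It was at 14.7, 19.7, 18.2 and 21.7 CPM in Bbs8+/+ and at 9.72, 3.66, 2.30 and 4.21 CPM in Bbs8-/-, without overlap between genotypes. Markers of the RPE (Rpe65, Rlbp1, Ttr and 5 others) summed to 16727 to 17755 CPM in Bbs8+/+ and 17974 to 18306 CPM in Bbs8-/-, most of it Ttr, with Rpe65 at -0.13 and Lrat at -0.10 on the log2 scale. Of 13813 genes tested with edgeR's quasi-likelihood test, 152 were higher and 157 lower in Bbs8-/- at a Benjamini-Hochberg false discovery rate (FDR) of 0.05, which is 2.24% of genes in either direction. Xist, which females express, was at 641.5 to 747.4 CPM in Bbs8+/+ and 570.9 to 625.7 CPM in Bbs8-/-. The Y-linked transcripts summed to 59.1 to 65.0 CPM and 108.3 to 119.7 CPM. Both were present in all 8 libraries, although a library from 1 mouse would be expected to hold Xist or the Y-linked transcripts and not both. Neither overlapped between genotypes, so an effect of sex cannot be told apart from genotype. Whether the 4 libraries of a genotype hold separate animals cannot be told from these counts. The p-values, SE and intervals measure the spread between libraries, whatever number of animals each holds, and not necessarily that between animals.

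Nr4a3 encodes the receptor NOR-1 and lies on chromosome 4 from 48045153 to 48086447 on the plus strand. It was at 20.3, 21.3, 17.8 and 20.3 CPM in the Bbs8+/+ libraries and at 4.86, 7.32, 7.35 and 3.27 CPM in the Bbs8-/- libraries. Every control library was thus above every knockout library, as for 3.76% of all tested genes, and the highest knockout value (7.35 CPM) was far below the lowest control value (17.8 CPM). The values rest on 47, 54, 38 and 58 counts in the controls and 8, 14, 16 and 7 counts in the knockouts. The genotype means were 19.9 ± 1.49 and 5.70 ± 2.00 CPM (SD, n = 4), and the log2 fold change was -1.79 ± 0.29 (SE), with a 95% interval from -2.37 to -1.22. The controls agreed closely with each other, with a coefficient of variation of 7.49%, against 35% among the knockouts at their lower counts. In a whole eyecup, fewer cells that express Nr4a3 and less Nr4a3 RNA per cell cannot be told apart.

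Nr4a1 encodes NUR77, the receptor most often used as a marker of recent receptor signalling. It was at 4.32, 5.12, 1.87 and 7.69 CPM in Bbs8+/+ and at 3.04, 3.66, 3.22 and 2.81 CPM in Bbs8-/-. The knockout libraries lay within the range of the controls, whose replicate 3 was the lowest of all 8. The log2 fold change of Nr4a1 was -0.60 ± 0.51 (SE), and its 95% interval ran from -1.60 to 0.40. Without Bbs8+/+ replicate 3 the log2 fold change was -0.84, and without Bbs8+/+ replicate 4 it was -0.26. These values rest on only 4 to 22 counts a library.

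Nr4a2 encodes NURR1, known for its role in dopaminergic neurons. It was at 7.77, 16.1, 14.0 and 16.1 CPM in Bbs8+/+ and at 12.8, 13.1, 17.5 and 7.95 CPM in Bbs8-/-. The genotypes overlapped across almost their whole range, with 1 low library in each. On the log2 scale Nr4a2 differed by -0.08 ± 0.27, with a 95% interval from -0.62 to 0.45. Of the counts on the 3 receptor genes, Nr4a3 took 52.9 ± 7.09% in Bbs8+/+ and 25.9 ± 3.31% in Bbs8-/- (SD, n = 4), and the ranges of 46 to 62.7% and 23.3 to 30.4% did not overlap. QuantSeq counts are 3′ ends without scaling by length, and this share is compared between genotypes only.

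Fos encodes the best studied early response protein, the partner of Jun in AP-1. It was at 1.73, 7.88, 4.21 and 3.15 CPM in Bbs8+/+ and at 5.47, 3.66, 4.13 and 3.74 CPM in Bbs8-/-. The controls spread widely, with replicates 1 and 2 as the lowest and the highest of all 8 libraries, and all knockouts fell between them. The log2 fold change of Fos was -0.01 ± 0.50, with a 95% interval from -0.98 to 0.96. Without Bbs8+/+ replicate 2 it was 0.48.

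Jun encodes the AP-1 subunit that can pair with itself as well as with Fos proteins. It was at 46.2, 52.4, 52.4 and 56.3 CPM in Bbs8+/+ and at 40.7, 43.4, 49.6 and 42.6 CPM in Bbs8-/-. The knockouts were on the low side, but replicate 3 of the knockouts lay above replicate 1 of the controls. On the log2 scale Jun differed by -0.23 ± 0.14, with a 95% interval from -0.51 to 0.05. Junos, an antisense gene that overlaps Jun, held 27 counts over all libraries.

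Junb, an AP-1 subunit that often tempers Jun, was at 11.2, 9.45, 7.95 and 8.74 CPM in Bbs8+/+ and at 6.07, 10.5, 12.4 and 10.8 CPM in Bbs8-/-. The lowest and the highest library were both knockouts, so the controls lay within the knockout range. For Junb the log2 fold change was 0.10 ± 0.31, with a 95% interval from -0.51 to 0.72. Prdx2, on the opposite strand, overlaps Junb and held 2688 counts; whether the counting used strand is not stated, and the values of Junb are uncertain to that extent.

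Fosb, the FOS relative known for its long-lived splice form, and Atf3, a stress-induced member of the ATF family, were near the detection limit. Fosb was at 2.59, 0, 0.468 and 0 CPM in Bbs8+/+ and at 1.82, 1.57, 0.459 and 1.40 CPM in Bbs8-/-, which overlapped. A count of 0 allows up to 1.18 CPM in Bbs8+/+ replicate 2 and 1.05 CPM in replicate 4, by counting error alone. For Fosb the log2 fold change was 0.78 ± 0.97, with a 95% interval from -1.12 to 2.68 that does not separate a rise from a fall. Atf3 was at 2.16, 0.394, 1.87 and 2.45 CPM in Bbs8+/+ and at 2.43, 2.09, 2.30 and 0.935 CPM in Bbs8-/-, with 1 low library in each genotype. Its log2 fold change was 0.15 ± 0.74, with a 95% interval from -1.31 to 1.61. Differences in these low genes short of several-fold were not detectable at this depth.

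Egr1 encodes an early growth response factor that is a common readout of MAP kinase activity. It was at 31.5, 28.0, 37.0 and 36.0 CPM in Bbs8+/+ and at 38.3, 48.6, 45.5 and 38.8 CPM in Bbs8-/-. All 4 knockouts were above all 4 controls, although the gap between the nearest libraries (37.0 and 38.3 CPM) was smaller than the spread within either genotype. The log2 fold change of Egr1 was 0.37 ± 0.16, with a 95% interval from 0.06 to 0.69, unadjusted for the number of genes. Genotypes that did not overlap in this direction were seen for 3.62% of all tested genes.

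Ier2 was at 9.49, 6.30, 5.15 and 7.34 CPM in Bbs8+/+ and at 7.29, 2.61, 4.59 and 4.21 CPM in Bbs8-/-. The knockout replicate 1 reached the middle of the controls, and the other 3 knockouts lay below every control. For Ier2 the log2 fold change was -0.61 ± 0.42, with a 95% interval from -1.43 to 0.21.

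**Figure D2:**
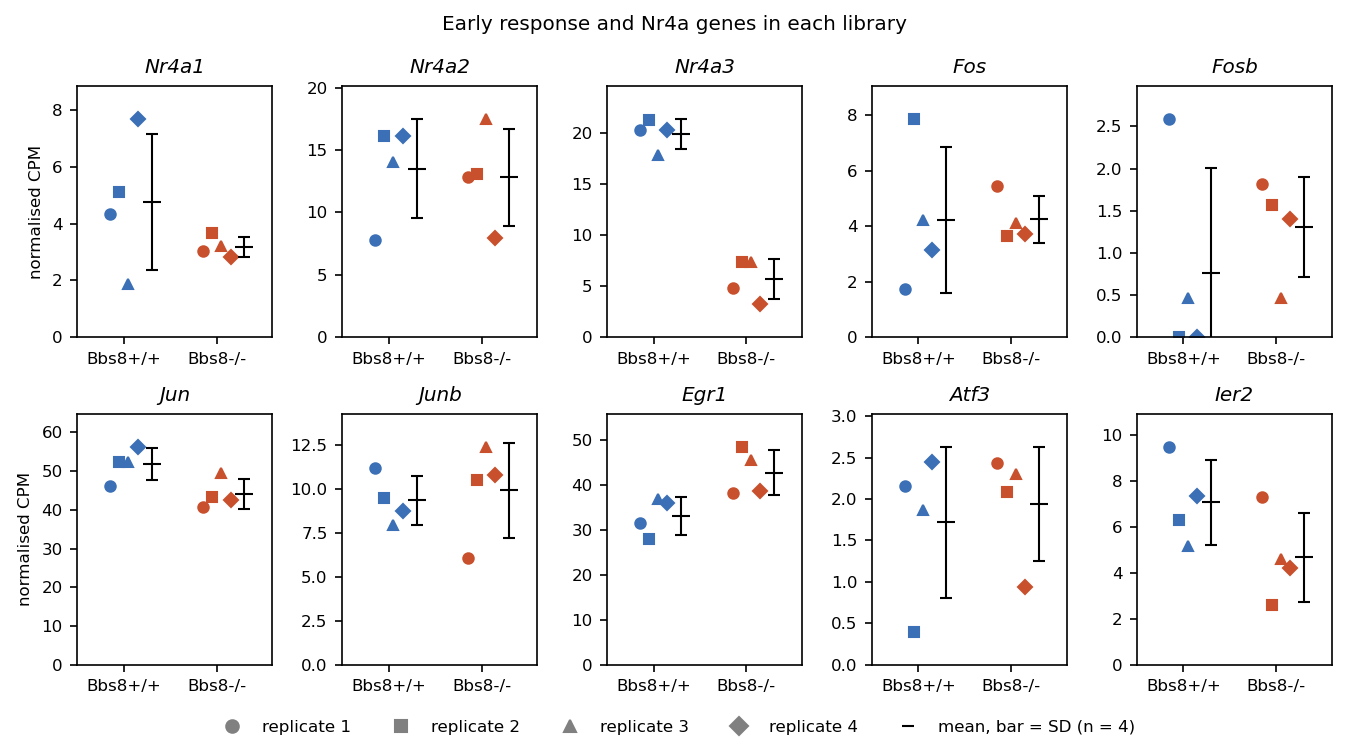
Normalised CPM (y axis, linear, from 0) of the 10 genes in each library, with a symbol for each replicate number; horizontal ticks with bars are the mean and SD of 4 libraries, and the bar of Fosb is clipped at 0. Nr4a3 is separated by genotype (17.8 to 21.3 CPM against 3.27 to 7.35 CPM), Egr1 is higher in the knockouts by a narrow gap, and the other 8 genes overlap.

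Considered together, 1 of the 10 genes, Nr4a3, was past the FDR threshold, against 2.24% of all tested genes in either direction and 1.14% in the lower and 1.10% in the higher direction; since Nr4a3 led to the list, nothing is read from this share. All 10 passed the filter of 1 CPM in at least 4 libraries, 8 of them in all 8 libraries, Atf3 in 6 and Fosb in 4 (1 Bbs8+/+ and 3 Bbs8-/-). The log2 fold change was above 0 for 4 genes and below 0 for 6, with a median of -0.05, where the median of all tested genes was -0.00. The 9 genes other than Nr4a3 together held 126.3 ± 8.59 CPM in the controls and 125.0 ± 11.9 CPM in the knockouts (SD, n = 4), with ranges of 116.9 to 137.8 and 113.2 to 139.6 CPM that overlapped throughout. The 5 AP-1 and ATF genes summed to 67.9 ± 3.14 and 61.5 ± 5.30 CPM, also overlapping.

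**Figure D3:**
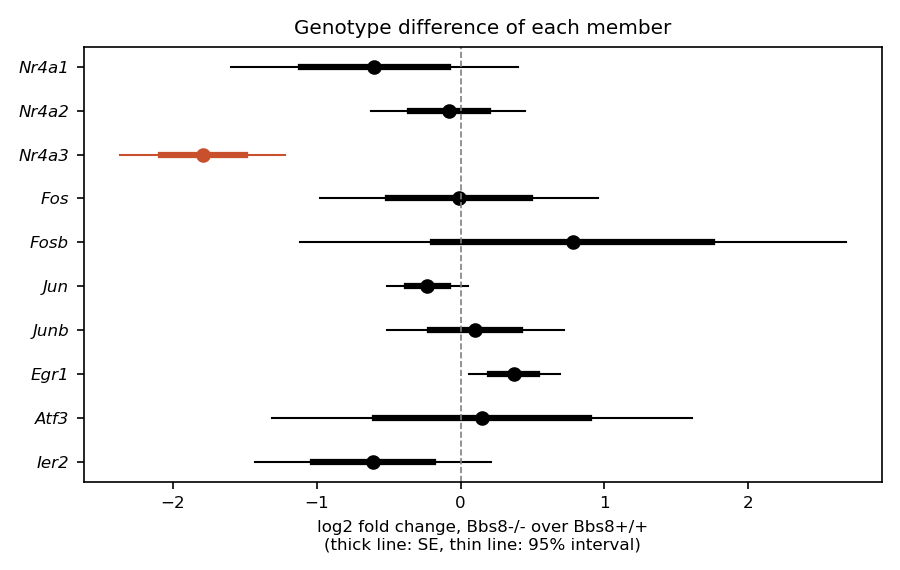
Log2 fold change of Bbs8-/- over Bbs8+/+ (x axis) for each of the 10 genes, with thick lines for the SE and thin lines for the 95% interval. Nr4a3 stands at -1.79, the other point estimates lie between -0.61 and 0.78, and the widest intervals belong to Fosb and Atf3, the genes with the fewest counts.

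The ratio of Nr4a3 to each of the other 9 genes within a library does not depend on how libraries were scaled, apart from the prior count of 1 added to each. On the log2 scale, the ratio to Jun was -1.17, -1.28, -1.54 and -1.45 in Bbs8+/+ and -2.95, -2.50, -2.68 and -3.53 in Bbs8-/-. That to Nr4a2 was 1.33, 0.39, 0.33 and 0.33 in Bbs8+/+ and -1.31, -0.80, -1.20 and -1.17 in Bbs8-/-, a change of sign between genotypes. Ratios were lower in every knockout than in every control for 7 of the 9 genes (Nr4a1, Nr4a2, Fos, Jun, Junb, Egr1 and Atf3), beside 85.9% of all other tested genes set against Nr4a3 in the same way; with Nr4a3 as the numerator in each, nothing is read from this count. They overlapped for Fosb, where counts were lowest, and for Ier2, whose own level was on the low side in the knockouts. The mean difference in the log2 ratio, Bbs8-/- minus Bbs8+/+, ranged from -2.73 for Fosb to -1.19 for Ier2. Fold changes and ratios draw on the same libraries and are not separate support for each other.

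**Figure D4:**
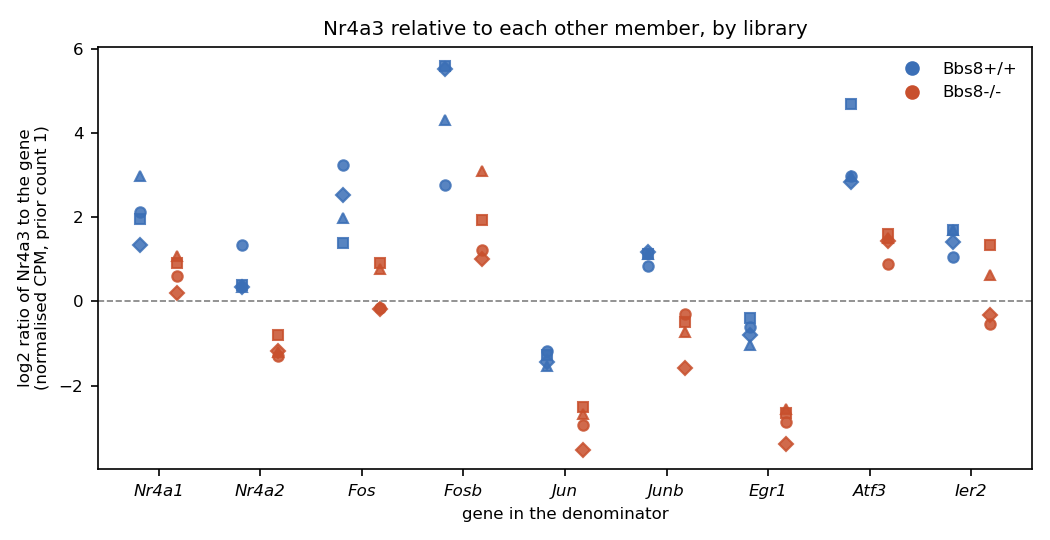
Log2 ratio of Nr4a3 to each other gene in the same library (y axis), by the gene in the denominator (x axis), with Bbs8+/+ in blue, Bbs8-/- in red and a symbol for each replicate number. The colours separate for 7 genes, and overlap for Fosb and Ier2.

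Within a genotype, the highest and the lowest library differed among the 10 genes. Counting error alone can reorder libraries where counts are low, as for Fos (4 to 20 counts a library), Fosb (0 to 6) and Atf3 (1 to 7). These ranks therefore do not decide whether the genes rise and fall together. Bbs8+/+ replicate 1 was the highest control for 3 genes (Fosb, Junb and Ier2) and the lowest for 3 others (Nr4a2, Fos and Jun). Bbs8+/+ replicate 4 was the lowest control for 1 gene, Fosb, where it tied with replicate 2 at 0 counts, and Bbs8-/- replicate 4 the highest knockout for 0 genes. In log2 units around the genotype mean, Fos ranged from -0.94 to 1.00 among the controls, while Nr4a3 ranged from -0.16 to 0.10 and Jun from -0.16 to 0.12. Among the knockouts, replicate 4 was lowest for 4 genes, with Nr4a3 at -0.66, Nr4a2 at -0.61, Atf3 at -0.73 and Nr4a1 at -0.15. These include all 3 Nr4a genes, though Nr4a1 there rests on 6 counts. Leaving out that library gave a log2 fold change of -1.59 for Nr4a3.

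Related genes were taken from 6 lists, of which 147 of 164 genes were tested. Across them 5 genes were higher and 2 lower in Bbs8-/- past the FDR threshold, 4.76% of those tested beside 2.24% of all genes, and 61 had a fold change above 0 and 86 below. The lists are described by these counts alone.

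Other members of the same families (8 of 12 tested) had a median log2 fold change of -0.18, with 1 higher and 0 lower. The gene that rose was Ier3, an early response gene linked to survival under stress. Ier3 was at 35.8, 30.7, 32.3 and 25.5 CPM in Bbs8+/+ and at 56.5, 41.8, 56.0 and 61.3 CPM in Bbs8-/-. All knockouts were above all controls, and the log2 fold change of Ier3 was 0.80 ± 0.16 (edgeR FDR 1.8e-04). Jund, the AP-1 subunit with the most constant expression, was at 151.0 ± 13.3 and 139.3 ± 17.3 CPM (edgeR FDR 0.665). Ier5, a relative of Ier2, was at 38.4 ± 5.61 and 32.6 ± 4.09 CPM (edgeR FDR 0.577). Fosl1, Egr2, Egr4 and Batf3 had too few counts to be tested, with at most 8 in any library.

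Among 49 tested genes of the other early response list, 2 were higher, 1 was lower, and the median log2 fold change was -0.10. The sign of that median rested on single libraries, with 0.03 without Bbs8+/+ replicate 2 and 0.03 without Bbs8-/- replicate 1. Trib1, a pseudokinase that directs protein breakdown, rose from 216.1 ± 8.56 to 282.5 ± 16.4 CPM in the knockouts, by 0.39 ± 0.07 on the log2 scale (edgeR FDR 8.65e-05). Sgk1, a kinase induced by serum and glucocorticoids, rose from 262.5 ± 21.4 to 333.8 ± 46.0 CPM, by 0.35 ± 0.07 on the log2 scale (edgeR FDR 0.000502); without Bbs8-/- replicate 4 it was 0.26 and no longer past the threshold. Rhob, a small GTPase made rapidly after growth factors or stress, was the gene that fell. It was at 62.6, 49.6, 51.0 and 42.0 CPM in Bbs8+/+ and at 28.5, 27.7, 35.8 and 32.3 CPM in Bbs8-/-, without overlap, with a log2 fold change of -0.71 ± 0.16 (edgeR FDR 0.00195). Ccn2, a matrix-associated growth factor and a target of SRF and YAP, was at 234.5 ± 41.4 and 203.8 ± 46.0 CPM (edgeR FDR 0.297). The classical neuronal early genes Arc and Npas4 reached at most 1 and 3 counts in a library and were not tested.

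Among the upstream regulators, none of 17 tested cAMP and CREB regulators and none of 18 tested calcium, calcineurin and NFAT regulators was past the threshold in edgeR's test or in DESeq2; 2 genes in each list had an unadjusted p under 0.05, beside 1792 of the 13813 genes tested in all, and the list medians were -0.04 and -0.01. With 2.24% of all genes past the threshold, lists of this length say little by their counts. Creb-binding protein (Crebbp) was at 246.5 ± 16.6 and 263.4 ± 18.7 CPM, with a log2 fold change of 0.10 and a 95% interval from -0.04 to 0.24. Prkar1a and Prkacb, a regulatory and a catalytic subunit of protein kinase A, had log2 fold changes of -0.14 (95% interval -0.30 to 0.03) and -0.04 (-0.23 to 0.14). Calm2 and Calm3, which encode the calcium sensor calmodulin, had log2 fold changes of 0.01 and -0.01.

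Of 20 tested MAP kinase and SRF regulators, Mef2c was higher and 0 were lower. Mef2c, a MADS-box factor that answers calcium and MAP kinase signals, was at 206.3, 211.1, 255.0 and 196.8 CPM in Bbs8+/+ and at 277.0, 270.4, 284.8 and 282.5 CPM in Bbs8-/-. The knockouts were tightly grouped above all controls, with a log2 fold change of 0.36 ± 0.07 (edgeR FDR 0.000408). Mef2a was at 167.2 ± 21.8 and 159.7 ± 6.10 CPM (edgeR FDR 0.817), and Mapk3, which encodes the kinase ERK1, at 108.7 ± 9.86 and 102.1 ± 10.7 CPM (edgeR FDR 0.771).

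Of the other nuclear receptors, 35 of 45 were tested, with 1 higher and 1 lower and a median log2 fold change of -0.02, which was 0.03 after thinning to the smallest library. Nr2f2, which encodes COUP-TFII, a receptor of mesenchyme and veins, fell from 425.4 to 330.6 CPM in the knockouts, with -0.36 on the log2 scale (edgeR FDR 3.14e-05). Nr2e3, a receptor of photoreceptors, was at 14.2, 25.2, 21.5 and 19.2 CPM in Bbs8+/+ and at 27.9, 31.4, 41.8 and 33.2 CPM in Bbs8-/-, which is 0.75 higher on the log2 scale (edgeR FDR 0.0143). Its call depended on single libraries, with an edgeR FDR of 0.0951 without Bbs8+/+ replicate 1 and 0.149 without Bbs8-/- replicate 3. Photoreceptor markers summed to 531.2 to 572.6 CPM in Bbs8+/+ and 431.2 to 491.0 CPM in Bbs8-/-, the opposite direction. Rora (282.0 and 307.6 CPM, edgeR FDR 0.44) and Thra (243.9 and 245.4 CPM, edgeR FDR 0.98) did not pass.

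**Figure D5:**
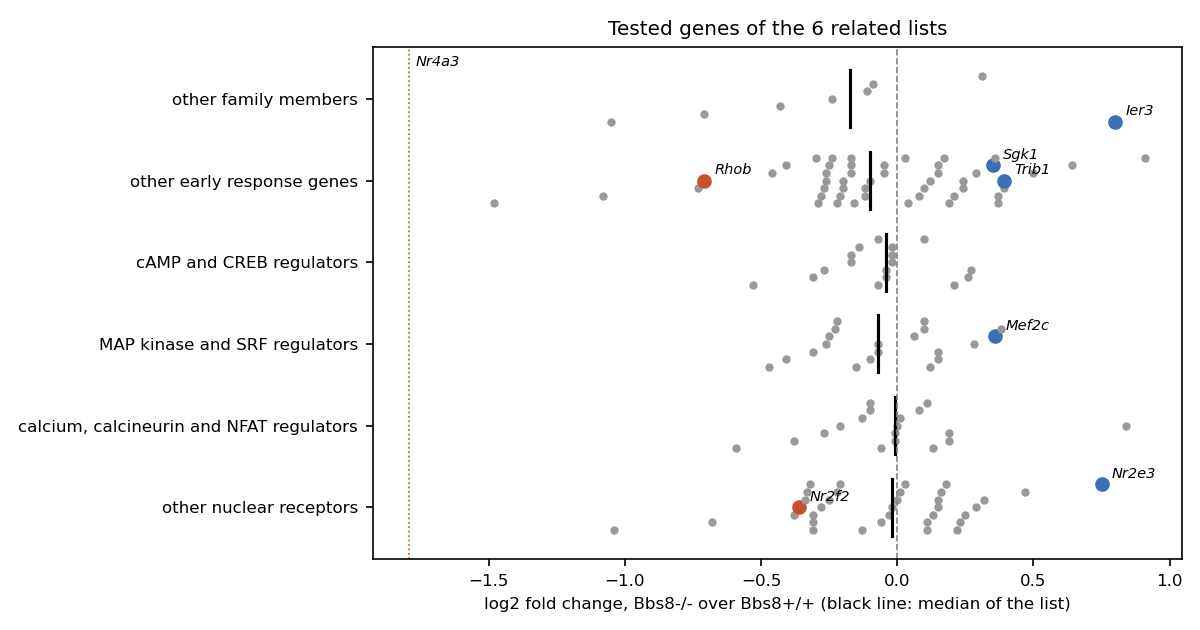
Log2 fold change (x axis) of each tested gene in the 6 related lists (rows), with genes past the FDR threshold named and coloured (blue higher, red lower in Bbs8-/-) and black lines at the list medians. The dotted line marks Nr4a3 at -1.79; the list medians lie between -0.18 and -0.01.

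Of the genes that start within 500 kb of Nr4a3 on chromosome 4, 5 were tested. None was past the FDR threshold in edgeR's test or in DESeq2, and 1 of the 5, Invs, had an unadjusted edgeR p under 0.05, beside 1792 of 13813 genes in all. Stx17, a SNARE of autophagosomes and the nearest of those tested at 79.8 kb, had a log2 fold change of 0.07 (95% interval -0.21 to 0.35). Erp44, a chaperone of the secretory pathway, had a log2 fold change of -0.25 (-0.67 to 0.18). Invs, which encodes the ciliary protein inversin, was at 25.5, 35.4, 20.6 and 29.4 CPM in Bbs8+/+ and at 21.3, 23.0, 20.2 and 14.0 CPM in Bbs8-/-, or -0.51 on the log2 scale (edgeR FDR 0.224). Tex10 and Msantd3 were at -0.08 and -0.09.

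The genes whose profile over the 8 libraries was most like that of Nr4a3 were sought among 9042 genes with a mean of at least 10 CPM, by the root mean square difference of centred log2 CPM. The nearest included Zfp780b (0.42), Mal (0.44), Cblb (0.50) and Tns2 (0.51), and none of these was among the early response lists. Mal, a lipid raft protein of myelin and epithelia, is also on the Schwann cell and myelin marker list. It was at 22.0, 28.7, 26.7 and 23.4 CPM in Bbs8+/+ and at 8.50, 15.7, 13.8 and 10.3 CPM in Bbs8-/-. Like Nr4a3, it lay apart by genotype with a narrow spread among the controls, which is what the measure selects for. Among the 10 genes themselves, the nearest to Nr4a3 were Ier2 (0.82) and Jun (0.83). Within genotypes, Poll, Trnp1 and Svip were nearest to Fos (0.21 to 0.24), Zfp687, Mcrip1 and Crnkl1 to Egr1 (0.04 to 0.05) and Nadk, Cep95 and Tmem94 to Junb (0.06 to 0.08), none of them on the early response lists.

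Sums of markers listed for several other cell types moved with genotype beside Nr4a3. All 8 Schwann cell and myelin markers had a fold change below 0, with 4 past the FDR threshold, Mal among them. These 8 summed to 633.9 to 714.8 CPM in Bbs8+/+ and 478.5 to 537.0 CPM in Bbs8-/-. Of 8 surface epithelium markers only 3 had enough counts to be tested, Krt15, Krt6a and Krt13. These 3 summed to 8.27 to 14.5 CPM in Bbs8+/+ and 0 to 0.607 CPM in Bbs8-/-, with Krt6a and Krt13 at 0 in every knockout library. Among the untested markers, Krt5, Krt12 and Krt4 were also at 0 in every knockout library, and Krt14 in all libraries. Trp63 was at 0 to 1.4 CPM in Bbs8+/+ and at 0.468 to 1.38 CPM in Bbs8-/-, on at most 3 counts. Fibroblast markers summed to 34274 to 36006 CPM in Bbs8+/+ and 26893 to 28065 CPM in Bbs8-/-, melanocyte markers to 14328 to 15007 and 11897 to 12446 CPM, and lens markers to 225.6 to 264.0 and 647.5 to 692.9 CPM. These sums rest on the abundant genes of each list: 3 of 8 fibroblast markers, the collagens Col1a1, Col1a2 and Col3a1, were lower past the threshold, while Dcn and Lum were at 0.09 and 0.12 on the log2 scale. Of 10 melanocyte markers 7 were lower past the threshold, with Tyr at 0.02, Sox10 at -0.05 and Kit at -0.03. The RPE is pigmented too, and this list does not separate it from melanocytes. Of 19 tested lens markers 13, all crystallins, were higher, with Cryab at -0.15. Macrophage markers summed to 477.7 to 528.6 and 574.6 to 618.8 CPM, with 2 of 10 higher past the threshold. Transcripts of the Y chromosome summed to 61.4 ± 2.77 and 114.2 ± 6.24 CPM, and Xist was at 690.1 ± 44.3 and 589.3 ± 24.7 CPM. The part of any of these in the level of Nr4a3 was not tested.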

How the data were processed

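The authors trimmed reads, aligned them with STAR to mm10 and counted reads per gene, as the study's methods and the submitters' processing notes state; whether counting used strand is not given in the sources used here. The deposited files hold raw counts for 31053 Ensembl genes in 8 libraries (1636725 to 2884983 counts on genes). Lines that name no gene (57.5 to 59.3% of all lines' counts) were left out, and Gm42418 took 15.2 to 18.3% of gene counts. Symbols came from GENCODE M21 (31011 matched).

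Genes with 1 CPM in at least 4 libraries (13813) were fitted with edgeR 4.0.16 (R 4.3.3; TMM, quasi-likelihood test, genotype as the factor) over all 8 libraries, and p-values were adjusted by Benjamini-Hochberg at 0.05. Intervals (95%) are normal intervals from the SE, and a floor of 3 counts covers counting error only. DESeq2 1.42.0 and other settings were alternatives. The script was tested on simulated data. Profiles used log2 CPM with a prior count of 1.

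Named genes were the 10 listed genes, Ttc8, list genes past the threshold, the top 3 tested genes of each list by mean CPM, tested neighbours within 500 kb, and the nearest profiles (5 for Nr4a3, 3 each for Fos, Egr1 and Junb). Of these, 2 genes are not reported here. The genes and lists were chosen with earlier results of these data known.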

Additional observations from a re-analysis of the deposited data

Results flagged for a closer look

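Among the 100 sets of 4 libraries examined for named genes, 3 held a library far from the other 3, where chance gives about 5 (1 in 20). Jund was at 171 CPM in Bbs8+/+ replicate 1 and at 143 to 145 CPM in the other control libraries. Cblb, a gene with a profile like that of Nr4a3, was at 18.9 CPM in Bbs8+/+ replicate 2 and at 16 to 16.4 CPM in the other controls. Trnp1, near Fos in profile, was at 12.1 CPM in Bbs8-/- replicate 1 and at 9.35 to 9.65 CPM in the other knockouts. None of the 10 early response and Nr4a genes held such a library.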

How the results depend on the processing

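The log2 fold change of Nr4a3 stayed between -1.95 and -1.59 in all 16 refits; since its fall in these libraries chose the list, this describes the value and is no separate support. Past the threshold there was 1 gene of the 10 in each refit, also at an FDR of 0.01 or 0.1. At an FDR of 0.01 there were 92 higher and 81 lower genes over the whole table. With a replicate block the counts were 134 higher and 129 lower, and Nr4a3 was at -1.81; the same-numbered libraries of the genotypes deviated together with r from -0.0288 to 0.0192 over 9042 genes, so the numbers do not pair them. The sign of a gene near 0 turned in some refits: Fos was at 0.0831 with the replicate block and 0.175 after thinning to the smallest library, Poll at 0.0628 with the block, Thra at -0.000987 with library totals only, and Calm3 at 0.00186 after thinning. With 1 library left out at a time, the ranges of log2 fold change that crossed 0 were -0.283 to 0.097 for Nr4a2, -0.26 to 0.48 for Fos, -0.0199 to 0.268 for Junb, -0.173 to 0.394 for Atf3, -0.139 to 0.00558 for Mef2a, -0.0105 to 0.038 for Calm2, -0.0583 to 0.0349 for Calm3, -0.0256 to 0.0456 for Thra, -0.247 to 0.435 for Poll, -0.384 to 0.0858 for Svip, -0.104 to 0.015 for Zfp687, -0.0204 to 0.0701 for Mcrip1, -0.256 to 0.101 for Tex10, -0.229 to 0.134 for Msantd3 and -0.0597 to 0.194 for Stx17. Fosb was fitted in 11 of the 16 refits and Nr4a1, Fos and Atf3 in 15, since the filter removed them from the others. Over 48 named genes, 12 were past the threshold and 9 of these in every refit; Sgk1 was lost in 1, Nr2e3 in 2 and Tns2 in 12 of 16, while Cblb, just short of the threshold, passed in 5. Depth limits Fosb and Atf3 most.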
